A study of Ovis aries and Bos taurus with 10 samples.

Results

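VEGFA, ANGPT2, PTPRB, TEK, PECAM1, CDH5, KDR, VWF, ENG and TIE1 were followed as a set of vascular genes, made up of a pair of ligands that act on blood vessels and of genes by which endothelial cells are recognised. They were found through the annotation of the Affymetrix Bovine Genome Array, which gave one of these 10 symbols, of 9155 in all, to 15 of 24016 probe sets. Each of the 15 probe sets was kept apart, since signals of different probe sets are not on one scale of abundance. The genes were chosen with earlier results of these data known, and their probe sets by the annotation alone.

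The study asked how gene expression differs between both compartments of the early sheep follicle, the oocyte and the granulosa cells (GC) around it. The 6 arrays of laser capture microdissection (LCM) held oocytes of primordial (PDO), primary (PMO) and secondary (SECO) follicles and GC of primordial (PDG), primary (PMG) and secondary (SECG) follicles, all cut from ovaries of new-born lambs less than 1 day old, 1 array per sample. A further 4 arrays held whole fetal ovary: ovine RNA of 132 days post coitum under labelling protocols P2, P3 and P1, and bovine RNA of 8 months post coitum under P1. P1 was the standard Affymetrix labelling of total RNA. P2 and P3 both followed a double round of amplification and ended in Affymetrix or in Arcturus Turbo labelling. The LCM samples were labelled by P3. No sample carried a treatment or a mutation. LCM RNA was pooled from more than 1 animal at every stage, and from more animals at the primary stage than at the others. No condition had a replicate array, so that the 3 stages served as replicates of a compartment. All probes are bovine, and all samples except 1 are ovine.

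Values are MAS 5.0 signals, linear and scaled by the authors to a trimmed mean of 100 on each array. A probe set was called detected on an array when it lay among the brightest in that array's published share of present calls, which set limits between 45.8 and 74.2 on the LCM arrays and between 28.9 and 44.7 on the fetal ovary arrays. Markers followed the compartments in part. Of 11 tested probe sets of oocyte genes, 4 were higher in oocytes at all 3 stages and 0 lower. Those 11 stood for 8 genes, and 3 of the 4 were probe sets of a single gene, MAEL. Of 3 tested probe sets of GC genes, 2 (FST and INHA) were lower in oocytes at all 3 stages and 0 higher. Over all probe sets, 17.7% were higher and 17.1% lower at all 3 stages. The other 7 oocyte probe sets did not keep one sign, and the summed oocyte signal was 8298, 8483 and 3306 in PDO, PMO and SECO, against 3321, 5943 and 3622 in PDG, PMG and SECG, so that SECO lay under SECG. SECO stood apart in its red blood cell probe sets, whose summed signal was 8050 there, against 127 to 272 on the other oocyte arrays and 379 to 1380 on the GC arrays.

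VEGFA is the main growth factor for endothelial cells and signals through KDR. ANGPT2 binds the receptor TEK, also called TIE2, and depending on context blocks or activates it. TIE1 is a partner of TEK, PTPRB is a phosphatase that acts on TEK and on the junction protein CDH5, and ENG is a co-receptor for TGF-beta family ligands. CDH5 and PECAM1 hold endothelial cells together, and VWF is the clotting factor that endothelial cells store. In the ovary, vessels run through the stroma and later the theca, while the GC layer has none of its own until ovulation.

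Of the 15 probe sets, 7 (for 6 genes) were detected on at least 1 LCM array, a share of 46.7% beside 48.5% over all probe sets. They were both VEGFA probe sets, that of ANGPT2, PTPRB and TEK, 1 of 2 for PECAM1 and 1 of 2 for CDH5. KDR, VWF, ENG and TIE1 were below the limit on all 6 LCM arrays. The number detected was 5, 3 and 5 on PDO, PMO and SECO, against 6, 6 and 5 on PDG, PMG and SECG. Over all probe sets, 34.1%, 29.4% and 32.0% were detected on the oocyte arrays, against 36.5%, 30.1% and 35.4% on the GC arrays.

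The probe set Bt.4138.2.S1_at of VEGFA had signals of 179, 300.3 and 262 in PDO, PMO and SECO, against 665, 885 and 1697 in PDG, PMG and SECG. Every oocyte array was below every GC array, and the brightest array was that of GC from secondary follicles. The difference, oocyte minus GC on log2(signal + 20), was -1.96 ± 0.34 (SE, 3 arrays a compartment). On signal + 20 this was 3.90 times more in GC. By stage it was -1.79, -1.50 and -2.61 from the primordial to the secondary stage. It ranked 11th of 11642 probe sets by p, but limma's adjusted p was 0.406. It was 0.0463 with an intensity trend in the variance, where 10 probe sets passed, and ran from 0.0463 to 0.618 over 16 alternatives.

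The probe set Bt.4138.1.S1_a_at, also of VEGFA, gave another picture. Its signals were 4.76, 65.7 and 68.4 in PDO, PMO and SECO, against 29.0, 132 and 41.7 in PDG, PMG and SECG, and only those of SECO and PMG passed their limit, SECO narrowly (68.4 against 67.6). Compartments overlapped, and the difference was -0.43 ± 0.39 (adjusted p = 0.696), with a higher signal in the oocyte at the secondary stage. The VEGFA result therefore rested on 1 of 2 probe sets.

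ANGPT2 was not detected on any oocyte array. Its signals were 5.28, 2.04 and 30.2 in PDO, PMO and SECO, against 135, 59.2 and 124 in PDG, PMG and SECG, where PDG and SECG passed the limit and PMG did not. The values as given did not overlap. With the detection limit in place of the oocyte signal, ANGPT2 was at least 2.14-fold lower in the oocyte at the primordial and at least 1.64-fold lower at the secondary stage (on signal + 20). At the primary stage both arrays were under their limits, so that no order can be read. The fitted difference, which depends on the added constant, had an adjusted p of 0.406.

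**Figure D1:**
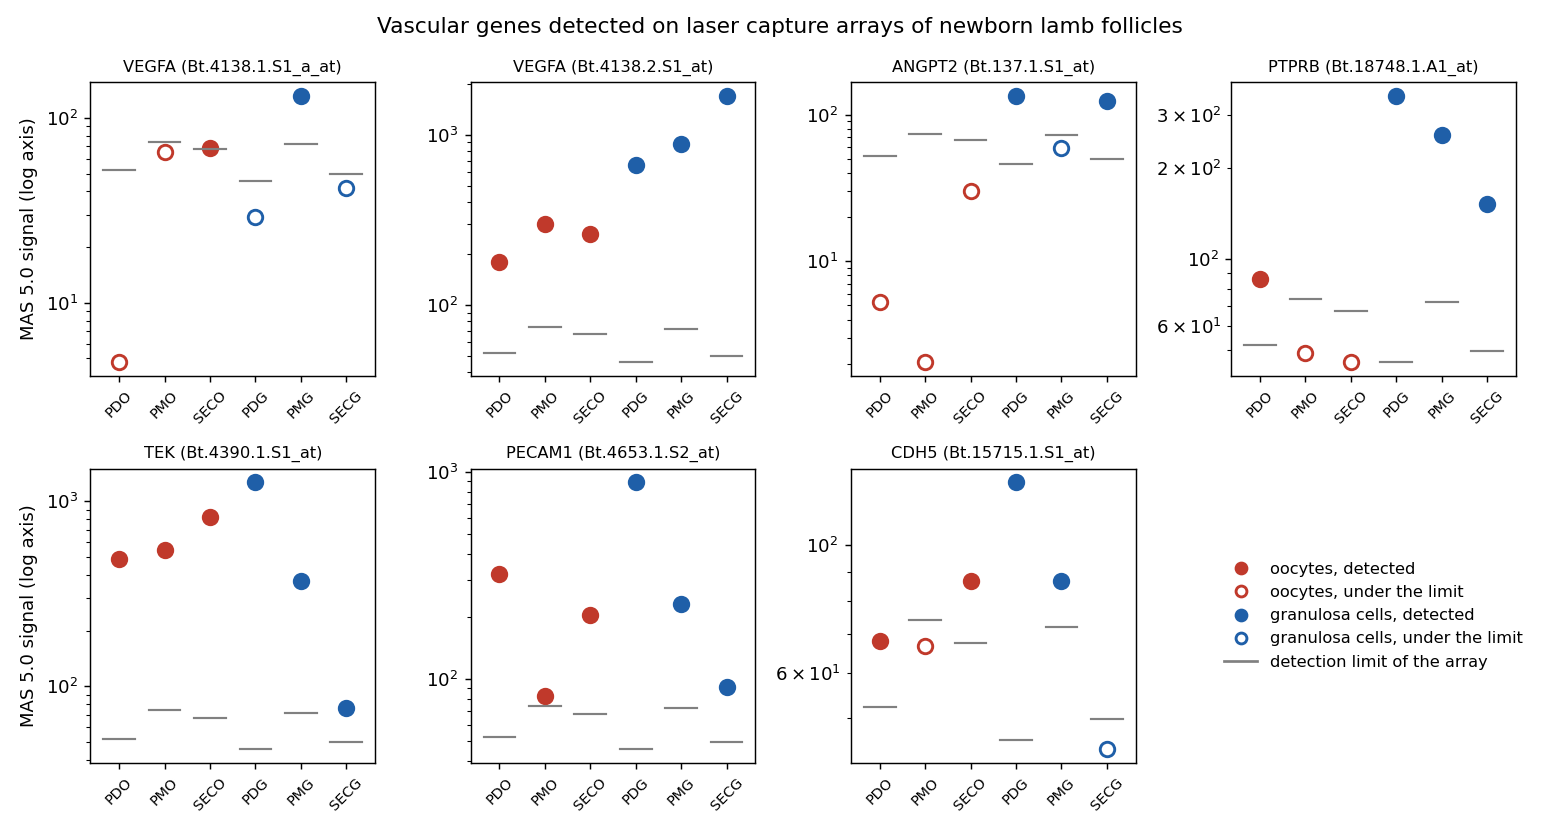
Signals (log axis) of the 7 vascular probe sets detected on at least 1 LCM array, 1 point per array, with the 3 oocyte arrays left of the 3 arrays of granulosa cells (GC). Each sample had 1 array, so there are no error bars, grey dashes are the detection limits, and open points lie under them. VEGFA (Bt.4138.2.S1_at) and PTPRB were lower in oocytes than in GC at all 3 stages, as was ANGPT2 except that both its primary stage points are under the limits, while TEK had its highest and its lowest point in GC.

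Among the detected receptors and their regulators, PTPRB was the gene with one sign at every stage. It had signals of 86.2, 49.1 and 45.6 in PDO, PMO and SECO, against 347, 258 and 152 in PDG, PMG and SECG. Only PDO passed the limit among the oocyte arrays, all 3 GC arrays did, and the compartments did not overlap. The difference was -1.73 ± 0.31, 3.32 times more signal in GC, with an adjusted p of 0.406. It was 2.72 times with the detection limits in place of the undetected PMO and SECO signals.

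TEK, the receptor of the angiopoietins, was detected on all 10 arrays and behaved differently from one stage to the next. Its signals were 487, 548 and 825 in PDO, PMO and SECO, against 1263, 373 and 76.1 in PDG, PMG and SECG. GC of primordial follicles gave the brightest array and GC of secondary follicles the dimmest, with the 3 oocyte arrays and PMG in between. The oocyte was thus 2.53-fold lower at the primordial stage, 1.45-fold higher at the primary stage and 8.79-fold higher at the secondary stage. The overall difference was 0.78 ± 0.74 (adjusted p = 0.718), and it turned to -0.40 without the secondary stage. Without that stage, oocytes were lower for 6 of the 7 detected probe sets at both stages left, all but that of TEK, beside 31.4% of all probe sets. Both arrays were under their limits for VEGFA (Bt.4138.1.S1_a_at) at the primordial and for ANGPT2 at the primary stage. No order can be read there, so the 6 describe the values as given.

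The other receptors were under the limits. TIE1 had signals of 1.77, 1.69 and 1.30 in PDO, PMO and SECO, against 2.28, 3.82 and 3.59 in PDG, PMG and SECG. ENG had signals of 11.02, 44.6 and 4.17 in PDO, PMO and SECO, against 10.7, 12.02 and 10.5 in PDG, PMG and SECG, the highest being that of PMO, under its limit of 74.2. KDR, the main VEGFA receptor, was under the limit with both of its probe sets on all 10 arrays, and its highest signal, 28.7 on the bovine array, was just under the limit of 28.9 there. At these limits, lower and absent expression cannot be separated.

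PECAM1 (Bt.4653.1.S2_at) was detected on all 10 arrays. It had signals of 322, 82.8 and 202 in PDO, PMO and SECO, against 888, 231 and 91.4 in PDG, PMG and SECG. PDG was the brightest, and the order of the compartments turned at the secondary stage. The difference was -0.57 ± 0.50 (adjusted p = 0.691) and was -1.35 without the secondary stage (adjusted p = 0.406).

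CDH5, or VE-cadherin (Bt.15715.1.S1_at), had signals of 68.2, 66.9 and 86.8 in PDO, PMO and SECO, against 129, 86.6 and 44.1 in PDG, PMG and SECG. PMO and SECG were under their limits. The difference was -0.10 ± 0.38 (adjusted p = 0.938), again with a turn at the secondary stage. The second probe sets of PECAM1 (Bt.4653.1.S1_at) and CDH5 (Bt.23246.1.S1_at) stayed under the limits on the LCM arrays. That of PECAM1 had 7.98, 59.5 and 13.3 in PDO, PMO and SECO, against 44.8, 6.58 and 7.10 in PDG, PMG and SECG, where PDG came nearest to its limit of 45.8. That of CDH5 had 24.2, 32.9 and 13.6 in PDO, PMO and SECO, against 24.5, 9.73 and 5.61 in PDG, PMG and SECG. The VWF probe set Bt.12823.1.S1_at had 3.76, 5.06 and 5.38 in PDO, PMO and SECO, against 1.78, 17.0 and 1.37 in PDG, PMG and SECG, and its other probe set Bt.12823.2.S1_at was under the limit on all 10 arrays.

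**Figure D2:**
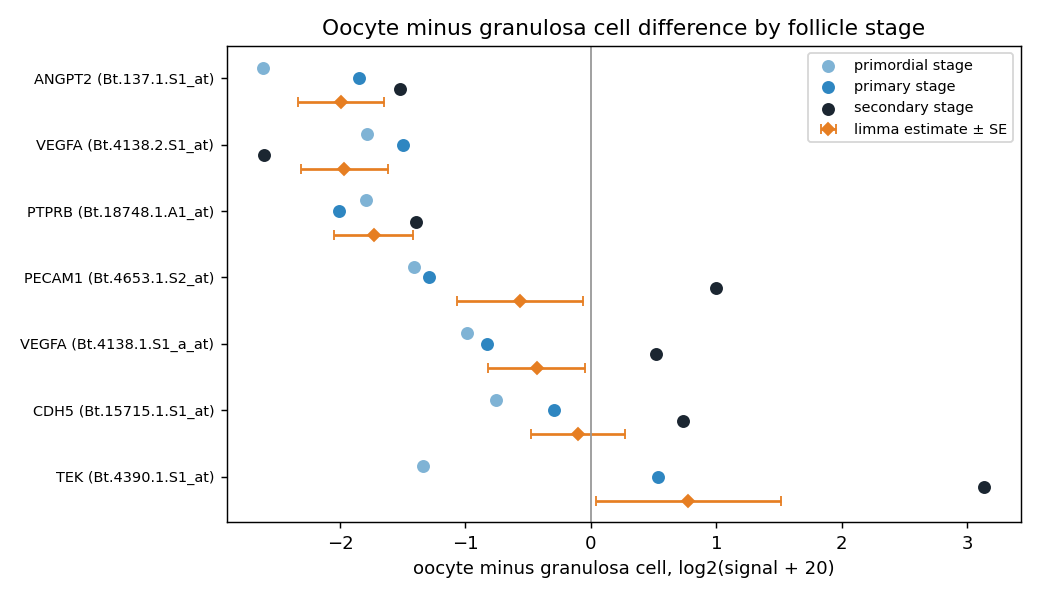
Oocyte minus GC differences of log2(signal + 20) at the primordial, primary and secondary stage for the 7 detected vascular probe sets, 1 point per stage, with limma's estimate ± SE as a diamond with bars. VEGFA (Bt.4138.2.S1_at), ANGPT2 (under the limits on both primary stage arrays) and PTPRB stayed below 0, and TEK ran from -1.34 to 3.14.

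Of the 7 detected probe sets, 0 passed an adjusted p of 0.05, as did 0 of the 11642 tested (0%). The unadjusted p was under 0.05 for 3 of them, all lower in oocytes (VEGFA Bt.4138.2.S1_at, ANGPT2 and PTPRB), beside 5.59% of all probe sets in that direction and 11.1% in either. Oocytes were lower at all 3 stages for 3 of 7 (17.1% of all probe sets) and higher at all 3 for 0 (17.7%). The 3 include ANGPT2, whose primary stage arrays were both under the limit, and with detection on at least 3 LCM arrays required the count was 2 of 5. In these same 3 the compartments did not overlap in the values as given, with oocytes below GC, beside 7.71% of all. The reverse, all oocyte arrays above GC, was seen for 0 of 7 (7.28%). ANGPT2 entered the test only through the 2 GC arrays where it passed the limit. Its lack of overlap cannot be read, since PMG and all oocyte arrays were under their limits, and its p-values describe the values as given. The exact two-sided permutation test over the 6 arrays gave 0.1 for each of the 3, the smallest p that 20 arrangements allow, and 0.6 to 0.8 for the other 4. The median difference over the 7 was -0.57, against 0.0166 over all probe sets.

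**Figure D3:**
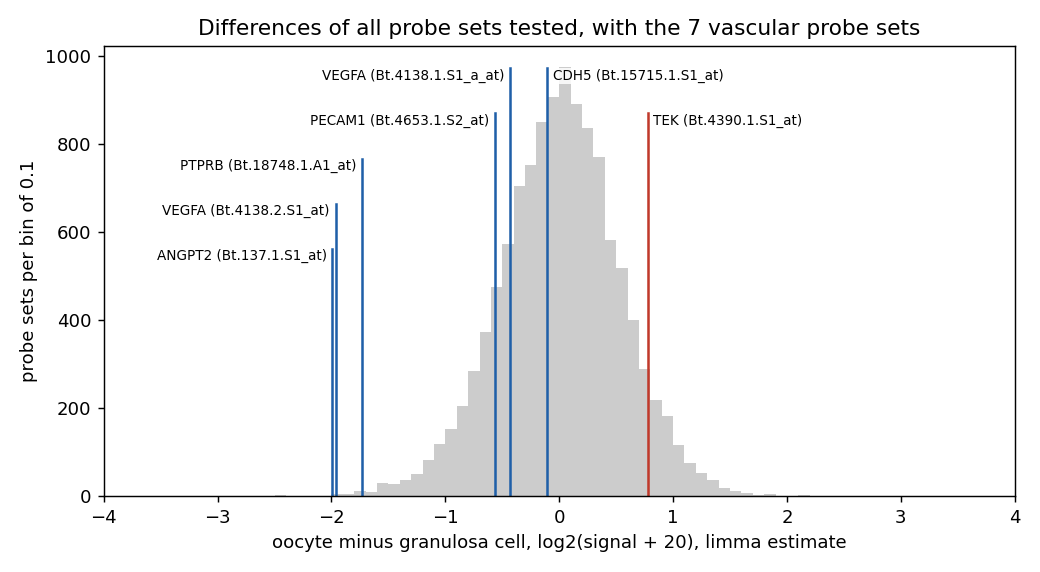
Histogram of limma's oocyte minus GC estimates on log2(signal + 20) for all 11642 probe sets tested (grey, probe sets per bin), with a line for each of the 7 vascular probe sets. ANGPT2, VEGFA (Bt.4138.2.S1_at) and PTPRB lie between -1.99 and -1.73, TEK at 0.78.

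Stage by stage within GC, PTPRB, TEK, PECAM1 and CDH5 each had a lower signal at each later stage, 4 of 7 probe sets beside 16.8% of all. CDH5 was under its limit in SECG. VEGFA (Bt.4138.2.S1_at) alone had a higher one at each later stage (17.8% of all). In oocytes PTPRB was lower at each later stage (16.3% of all), and TEK and VEGFA (Bt.4138.1.S1_a_at) were higher (20.9% of all). PTPRB in PMO and SECO, and VEGFA (Bt.4138.1.S1_a_at) in PDO and PMO, were under their limits. Of these orders in oocytes, that of TEK alone rests on detected signals throughout. With both compartments in the model, 0 of 7 passed the adjusted test for a stage, as did 0 of all probe sets (0%). PECAM1 was the one with an unadjusted p under 0.05 at both later stages, with primary minus primordial at -1.80 ± 0.62 (adjusted p = 0.740) and secondary minus primordial at -1.82 ± 0.62 (adjusted p = 0.358). The unadjusted p was under 0.05 for 2 of 7 in primary against primordial, PECAM1 and VEGFA (Bt.4138.1.S1_a_at), beside 6.55% of all, and for 2 of 7 in secondary against primordial, PECAM1 and PTPRB, beside 11.4%. That VEGFA probe set was detected on SECO and PMG alone.

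Markers of vessels were read on the same arrays. Summed over the 12 probe sets of the endothelial genes above (all but the ligands), the signal was 1038, 910.0 and 1216 in PDO, PMO and SECO, against 2768, 1027 and 397 in PDG, PMG and SECG. TEK alone gave 487, 548 and 825 of it in oocytes, against 1263, 373 and 76.1 in GC. Between 2 and 4 of the 12 were detected on each LCM array. Such sums add probe sets that are not on one scale of abundance. The 36 probe sets of 25 other endothelial genes summed to 1707, 2527 and 2265 in oocytes, against 3648, 2712 and 2524 in GC, with 10, 5 and 8 detected in oocytes, against 13, 7 and 6 in GC. Of their 16 tested probe sets, 7 were lower at each later stage in GC, and 4 were lower and 1 higher in oocytes at all 3 stages, with a median difference of -0.18. The shares over all probe sets, here and for the lists that follow, were 16.8% lower at each later stage in GC, and 17.1% lower and 17.7% higher in oocytes at all 3 stages. CAV1, a protein of endothelial caveolae, had 122, 433 and 251 in oocytes, against 734, 490 and 518 in GC (-1.19 ± 0.45, adjusted p = 0.423). The 11 probe sets of pericyte and smooth muscle genes summed to 736, 700 and 849 in oocytes, against 2659, 1380 and 1562 in GC. Of 6 tested, 2 were lower in oocytes at all 3 stages and 0 higher, with a median of -0.54. MYH11, the smooth muscle myosin, had 356, 336 and 352 in oocytes, against 1814, 897 and 1186 in GC (-1.78 ± 0.33, adjusted p = 0.406). On the same 6 arrays the endothelial genes were divided. VWF, KDR, TIE1 and ENG were under the limits, and the first 3 of these also in whole fetal ovary under P3. TEK and PECAM1 (Bt.4653.1.S2_at) were detected on all 6, PTPRB on PDO and all 3 GC arrays, and CDH5 (Bt.15715.1.S1_at) on PDO, SECO, PDG and PMG. The leukocyte list, of interest since leukocytes also carry PECAM1, summed to 410, 509 and 659 in oocytes, against 435, 442 and 223 in GC. Of 4 tested, 0 were lower and 1 higher in oocytes at all 3 stages, with a median of 0.45. The higher probe set, that of CSF1R, had 198, 292 and 225 in oocytes, against 115, 232 and 45.5 in GC (0.97 ± 0.39, adjusted p = 0.430). Its SECG signal was under the limit. The part of captured vessel or blood cells in the results was not tested, and fewer cells of a type and less RNA per cell cannot be told apart here.

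Of the other VEGF and angiopoietin ligands and receptors, 10 genes on the array, 6 probe sets could be tested and 0 passed. NRP1, a co-receptor of VEGFA, had 72.5, 45.1 and 29.3 in oocytes, against 401, 193 and 131 in GC, where PMO and SECO were under their limits (-1.83 ± 0.31, adjusted p = 0.406). FLT1, the second VEGFA receptor, leaned the other way, with 87.5, 108 and 36.3 in oocytes, against 62.3, 36.7 and 26.5 in GC (0.61 ± 0.33, adjusted p = 0.524). SECO, PMG and SECG were under their limits, so that no order can be read for FLT1 at the secondary stage. In all, 3 of the 6 were lower in oocytes at all 3 stages and 1, FLT1, was higher in the values as given. The median difference of the 6 was -0.27, beside 0.0166 over all probe sets.

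VEGFA transcription is known to follow oxygen tension through HIF1A. HIF1A had signals of 1252, 1505 and 1032 in oocytes, against 1931, 3532 and 5477 in GC (-1.41 ± 0.40, adjusted p = 0.406). All oocyte arrays were below all GC arrays, beside 7.71% of all probe sets. Like the VEGFA probe set Bt.4138.2.S1_at, HIF1A had a higher signal at each later stage in GC, beside 17.8% of all. A link between HIF1A and the VEGFA signal was not tested. Of 7 tested probe sets for oxygen sensing, 1 was lower in oocytes at all 3 stages and 0 higher. Of 11 for other genes induced by low oxygen, 3 were lower and 0 higher at all 3 stages, with a median difference of -0.15. SLC2A1, the glucose transporter, had -0.93 ± 0.35 (adjusted p = 0.420), while PGK1, a glycolytic enzyme, had -0.10 ± 0.30 (adjusted p = 0.922). Angiogenesis inhibitors had 1 of 5 lower in oocytes at all stages, the matrix protein SPARC (-0.996 ± 0.34, adjusted p = 0.414). The relay behind the VEGF receptors had 3 of 12 lower and 3 of 12 higher, with a median of -0.08. GRB2 (0.75 ± 0.36, adjusted p = 0.481) and MAP2K1 (0.43 ± 0.30, adjusted p = 0.611) were higher in oocytes. SHC1 (-0.55 ± 0.30, adjusted p = 0.526) was lower. No probe set of these lists passed the adjusted test.

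Whole fetal ovary, which holds vessels, gave 12 of the 15 probe sets (9 genes) above the limit on at least 1 array, KDR again not among them. Detected were 8, 8 and 12 on the ovine arrays under P2, P3 and P1, and 12 on the bovine array. VEGFA (Bt.4138.2.S1_at) had signals of 442 and 846 under P2 and P3, against 567 under P1 and 317 in the bovine ovary. The other VEGFA probe set had 78.3 and 82.2, against 43.7 and 33.8. For ANGPT2 they were 87.3 and 52.3, against 83.8 and 54.7. All of these passed the limits, so both ligands were read under every protocol.

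ENG had 79.9 and 101 under P2 and P3, against 280 under P1 in the same ovine RNA and 364 in the bovine ovary. TIE1 had 2.3 and 1.6 under P2 and P3, against 65.9 under P1 and 74.6 in the bovine ovary. PTPRB had 200.1 and 358, against 162 and 48.3. TEK stayed within a narrower range, with 149 and 130 under P2 and P3, against 83.9 under P1 and 182 in the bovine ovary.

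CDH5 (Bt.15715.1.S1_at) had 63.1 and 163 under P2 and P3, against 121 under P1 and 197 in the bovine ovary, and CDH5 (Bt.23246.1.S1_at) 25.0 and 23.3, against 54.1 and 57.3. VWF (Bt.12823.1.S1_at) had 4.0 and 30, against 77.6 and 41.1. PECAM1 (Bt.4653.1.S2_at) went the other way, with 342 and 628 under P2 and P3, against 190.4 under P1 and 155 in the bovine ovary, whereas its second probe set Bt.4653.1.S1_at had 6.20 and 7.40, against 58.8 and 96.8. The 2 probe sets of PECAM1 therefore moved in opposite directions between labelling protocols.

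Relative to P1, on log2(signal + 20), 4 of the 12 probe sets were at least 2-fold lower under P2 (22.9% of all detected on either array) and 0 at least 2-fold higher (12.9%). Under P3, 3 were lower (25.7%) and 2 higher (14.2%), PTPRB by 1.06 and PECAM1 (Bt.4653.1.S2_at) by 1.62 on the log2 scale. Of the 12 detected under P1, 4 were not detected under P3, and the same 4 were missed under P2: PECAM1 (Bt.4653.1.S1_at), CDH5 (Bt.23246.1.S1_at), VWF and TIE1. The share over all probe sets was 30.7% for P3 and 28.6% for P2. With 1 array each there is no replicate check. The LCM arrays were labelled by P3, and these 4 probe sets were under the limits on all 6 of them.

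The ovine and the bovine fetal ovary under P1 address how sheep RNA hybridises to bovine probes. All 12 probe sets were detected on both arrays, where 20.8% of all those detected in the bovine ovary were missed in the ovine one, and 1 of 12 differed at least 2-fold, PTPRB with 162 in the ovine ovary against 48.3 in the bovine ovary (1.41 on the log2 scale). Over all detected probe sets, 12.3% were at least 2-fold higher and 20.5% at least 2-fold lower in the ovine ovary. TEK came next, with 83.9 in the ovine ovary against 182 in the bovine ovary (-0.96). Species and fetal age cannot be told apart, with 1 array of each.

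Set beside the ovine fetal ovary under the same protocol P3, the captured cells were dimmer in some of these genes. ENG had 4.17 to 44.6 over the 6 LCM arrays, against 101 in the fetal ovary. PTPRB had 45.6 to 347, against 358, and CDH5 (Bt.15715.1.S1_at) 44.1 to 129, against 163. These were 3 of the 8 vascular probe sets detected on at least 1 of these 7 arrays, beside 18.1% of all with the fetal ovary on top, and 0 of 8 had it at the bottom (19.5% of all). TEK was the opposite case, with 76.1 to 1263 on the LCM arrays, against 130 in the fetal ovary, which was above SECG alone. VEGFA (Bt.4138.2.S1_at), at 846 in the fetal ovary, lay above the 3 oocyte arrays and PDG but below PMG and SECG. Of the 8 vascular probe sets detected in the fetal ovary under P3, that of ENG was detected on no LCM array (5.42% of all).

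Over all 10 arrays, the probe sets most like VEGFA (Bt.4138.2.S1_at) by Pearson correlation of log2(signal + 20), among 7195 probe sets, were CNRIP1 (0.881), GSTA2 (0.880), TIMP2 (0.879), DEPP1 (0.874) and NOS2 (0.872). ANGPT2 stood at rank 53 (0.737) and PTPRB at rank 91 (0.685), while VEGFA (Bt.4138.1.S1_a_at) was at rank 759 (0.407) and TEK at rank 6692 (-0.47). PTPRB was most like DPYSL2 (0.896), SMARCA2 (0.886), MAOA (0.873), FERMT2 (0.871) and FCGRT (0.861). Among the endothelial genes, PECAM1 (Bt.4653.1.S2_at) stood at rank 86 (0.688), CDH5 (Bt.15715.1.S1_at) at rank 2398 (0.135) and TEK at rank 4928 (-0.18). These are descriptions over 10 points that share compartment, labelling protocol and detection depth. Signals under the detection limits entered as given, among them those of ANGPT2 on PDO, PMO, SECO and PMG.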

How the data were processed

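Values are deposited signal intensities, made by the authors with MAS 5.0 in GCOS and scaled to a trimmed mean of 100 (2% trimmed at each end) without further normalization; program versions are not given in the sources used here. Symbols came from the platform annotation, with 13292 probe sets carrying 1 symbol, 86 several and 10638 none. The 112 control probe sets were left out, and all 10 symbols matched the sheep RefSeq gene table. Present calls were not used. A probe set was taken as detected when it was among the brightest on an array, in the percentage of present calls the study gives for that array.

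For the LCM arrays, log2(signal + 20) was fitted by limma 3.58.1 (R 4.3.3) with compartment and stage, over the 11642 probe sets that passed detection on 1 LCM array or more. There were 2 degrees of freedom from residuals and 5.43 from the prior, and p-values were adjusted by Benjamini-Hochberg over all of them at 0.05. The median residual SD was 0.384. With 1 array per compartment and stage, the residual spread is the change of the oocyte minus GC difference between stages. The p-values rest on that spread and the prior, not on a spread between animals or repeated captures of one condition. The number of arrays limits precision. Where an oocyte signal was undetected, the fold on signal + 20 was also computed with the array's detection limit in its place, at stages where the GC array passed its limit. Fetal ovary arrays were compared without a test. The fit was tested on simulated data. All detected members were named, and of each other list up to 3 probe sets detected on at least 3 LCM arrays with one sign at all stages, by size of difference. Members and lists were chosen with earlier results of these data known. Alternatives were other constants or a floor, quantile or median scaling, other filters, no stage term, an intensity trend, each stage left out and other detection rules. Leaving out SECO alone was added after seeing the data. With the stage term it is the same fit as leaving out the secondary stage, though it is counted among the alternatives. Figures were drawn with Python 3.11.15 and matplotlib 3.10.9.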

Additional observations from a re-analysis of the deposited data

Results flagged for a closer look

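TEK (Bt.4390.1.S1_at) was singled out because the sign of its oocyte minus GC difference changed between stages. The difference of log2(signal + 20) was -1.34 at the primordial, 0.53 at the primary and 3.14 at the secondary stage. Each stage had 1 array per compartment, so the difference between stages was not tested. Between the primary and the secondary stage, TEK had 548 and 825 in oocytes, against 373 and 76.1 in GC, so that the larger change was on the GC arrays. SECO carried the highest red blood cell signals (8050 summed, against 379 on SECG), and their part in the result was not tested.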

How the results depend on the processing

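An intensity trend in the variance moved the number of probe sets past the oocyte against GC test to 10 (0 without it), and that of the vascular probe sets to 1, VEGFA (Bt.4138.2.S1_at, adjusted p = 0.0463). PTPRB then had 0.0829 and ANGPT2 0.102. Every other alternative gave 0 for both counts. Over its 16 alternatives VEGFA (Bt.4138.2.S1_at) ran from -2.20 to -1.64 with adjusted p of 0.0463 to 0.618, PTPRB over 16 from -2.05 to -1.42 (0.0829 to 0.618), and ANGPT2 over 15 from -3.58 to -1.31 (0.102 to 0.618). The number of vascular probe sets lower in oocytes at all stages used, 3, was between 3 and 6 with a stage left out. The value of 6 is without the secondary stage, where 31.4% of all probe sets were lower at both remaining stages. It includes VEGFA (Bt.4138.1.S1_a_at) and ANGPT2, each with both arrays of 1 stage under the limits. Without the secondary stage TEK reversed to -0.40 (up to 1.83 without the primordial stage). Leaving out SECO alone gave the same value by construction, since the stage term then takes up SECG. It is thus no separate check and does not isolate SECO. CDH5 (Bt.15715.1.S1_at) reversed to 0.22 without the primordial stage (down to -0.52 without the secondary). With a constant of 1, the vascular probe sets at least 2-fold apart between ovine and bovine ovary under P1 were 2, not 1. Stage tests called 0 vascular probe sets under all alternatives run. The labels give no replicate numbers. Stage, shared by both compartments, paired the arrays in the model, and without it 0 probe sets passed as well. Requiring detection on at least 3 LCM arrays left 2 vascular probe sets lower in oocytes at all stages. Signals under the detection limits have no firm order, and 12 of the 15 probe sets were under the limit on at least 1 LCM array.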
